A study of Mus musculus with 6 samples.

Results

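The cytochrome P450 genes outside the Cyp3a and Cyp26 subfamilies were examined in whole uteri of mice that lacked SOX17 in the uterine epithelium. Members were all genes whose symbol begins with Cyp and a digit, except Cyp3a and Cyp26. The gene annotation listed 118 of them, the array carried a named probe for 87 of 20145 named genes, and 36 were measured well enough to be tested among 14847 genes.

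Total RNA of 3 Sox17f/f uteri and 3 Sox17ed/ed uteri was hybridized, each sample on an array of its own, at gestation day 3.5 of natural pregnancy, the time of uterine receptivity. Both genotypes were homozygous for the conditional (floxed) Sox17 allele, and the Sox17f/f females, labelled wild type by genotype, served as controls. The Sox17ed/ed females also carried the Ltf-iCre driver, which acts in the uterine epithelium from puberty, so that the Cre allele and the deletion cannot be told apart. Females were mated at 8 to 10 weeks of age, and uteri without embryos were collected. SOX17 of other uterine cells, such as endothelium, is not deleted in this model. The labels do not say whether each sample came from a separate female, so the p-values measure the spread between these samples, which may be technical.

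P450s are heme enzymes that insert 1 oxygen atom into a lipid, steroid or foreign compound, using electrons passed on by cytochrome P450 reductase (Por) in the endoplasmic reticulum or by ferredoxin in mitochondria. Families 1 to 4 act mostly on drugs, pollutants, fatty acids and eicosanoids. The remaining members build steroid hormones, bile acids, oxysterols, cholesterol and active vitamin D. The uterus is a target of the steroids that such enzymes make and clear.

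The targeted gene checked the labels. Signals are given as quantile-normalized log2 fluorescence, on which a difference of 1 is a doubling. Sox17 measured 12.21, 12.07 and 12.22 in Sox17f/f uteri and 9.75, 9.59 and 9.81 in Sox17ed/ed uteri, a log2 fold change of -2.45 (SE 0.087, limma adjusted p = 2.66e-05, n = 3 against 3). The genotypes did not overlap, and an exact two-sided permutation test of this single value gave p = 0.1, the smallest that 3 against 3 arrays allow. Whether the probe lies in the deleted part is not given in the sources used here. On the 6 arrays, 56.8% to 65.7% of 59305 spots were well above background and none was saturated. All arrays came from 1 slide, on which each genotype filled a line of its own, so that slide position and genotype cannot be told apart. In RNA from whole tissue, more cells of a type and more RNA per cell cannot be told apart either.

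Of the 36 P450s tested, 5 were higher and 1 was lower in Sox17ed/ed uteri at the thresholds of the study's methods, an unadjusted p below 0.01 and a fold change of at least 1.4. Cyp2f2, Cyp4f15, Cyp2s1, Cyp4b1 and Cyp4f18 rose, and Cyp7b1 fell. Cyp4f15 passed the background filter only through its Sox17ed/ed arrays and is counted with that limit. The members past the thresholds made up 16.7% of those tested, and 12.5% of all genes passed. By direction the shares were 13.9% of P450s against 6.04% of all genes for the rise, and 2.78% against 6.47% for the fall. At an adjusted p below 0.05 with no fold threshold, the P450s that passed were the same 6, 16.7% of them, against 18.9% of all genes. The genotypes did not overlap in 9 of the 36 P450s, 25% of them, against 40.6% of all genes. The median log2 fold change was 0.077 over the P450s and -0.0016 over all genes. A positive sign was found in 26 of the 36 P450s and in 7386 of all 14847 genes. Replicate SDs were larger among the P450s, with a median of 0.181 against 0.11 over all genes.

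**Figure D1:**
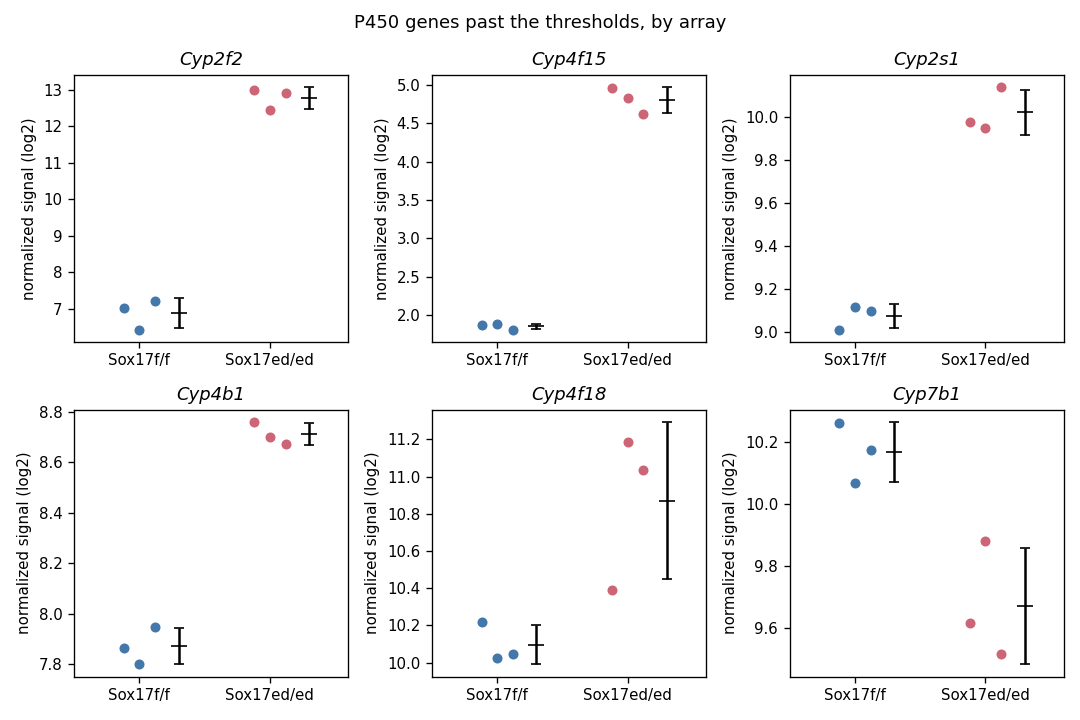
Normalized log2 signal of the 6 P450 genes past the thresholds, with Sox17f/f arrays in blue and Sox17ed/ed arrays in red, 3 points each in replicate order, and the mean and SD in black beside them. The vertical scale differs between panels and does not start at 0. Cyp2f2 lies between 6.43 and 7.22 in Sox17f/f and between 12.44 and 12.998 in Sox17ed/ed, and in Cyp4f18 the lowest Sox17ed/ed array, 10.39, lies close to the highest Sox17f/f array, 10.22.

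The stretches of genome upstream of the 5 genes that rose are shown because these genes moved in 1 direction. RefSeq promoters (GRCm38.p6) matched 26 of the 36 P450s tested, and Cyp7b1 was not among them. The 250 bases before each start site are printed in the direction of transcription, with the core of a SOX site (ACAAT) and the CCAAT box in capitals on either strand, where they read ATTGT and ATTGG.

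Cyp2f2, chr7:27119705-27119954, plus strand: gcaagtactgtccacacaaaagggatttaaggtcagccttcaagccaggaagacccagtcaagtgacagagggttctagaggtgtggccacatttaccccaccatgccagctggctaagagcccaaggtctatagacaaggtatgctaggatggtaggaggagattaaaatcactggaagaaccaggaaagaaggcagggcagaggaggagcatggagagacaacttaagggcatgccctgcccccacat
Cyp2s1, chr7:25816526-25816775, minus strand: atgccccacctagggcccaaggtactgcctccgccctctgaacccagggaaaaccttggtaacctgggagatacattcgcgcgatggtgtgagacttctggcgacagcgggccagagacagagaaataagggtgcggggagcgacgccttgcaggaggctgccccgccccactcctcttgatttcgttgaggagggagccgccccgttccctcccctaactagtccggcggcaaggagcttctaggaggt
Cyp4b1, chr4:115647722-115647971, minus strand: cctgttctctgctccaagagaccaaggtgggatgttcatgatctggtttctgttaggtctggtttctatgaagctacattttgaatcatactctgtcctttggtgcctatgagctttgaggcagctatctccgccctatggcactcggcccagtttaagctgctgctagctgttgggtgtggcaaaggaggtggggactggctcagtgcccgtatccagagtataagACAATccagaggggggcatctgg
Cyp4f15, chr17:32685409-32685658, plus strand: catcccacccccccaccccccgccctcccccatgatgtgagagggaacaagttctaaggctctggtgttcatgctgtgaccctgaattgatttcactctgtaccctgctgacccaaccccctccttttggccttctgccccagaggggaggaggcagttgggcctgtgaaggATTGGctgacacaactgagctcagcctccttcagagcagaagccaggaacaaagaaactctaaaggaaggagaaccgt
Cyp4f18, chr8:72009627-72009876, minus strand: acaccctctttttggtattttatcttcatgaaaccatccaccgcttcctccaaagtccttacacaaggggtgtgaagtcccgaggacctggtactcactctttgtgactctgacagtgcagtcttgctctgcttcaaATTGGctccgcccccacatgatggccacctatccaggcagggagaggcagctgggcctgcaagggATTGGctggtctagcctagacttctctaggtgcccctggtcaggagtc

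Among the 5 windows, ACAAT was found once, in Cyp4b1. Over 32851 promoter windows of the same length, 27.7% held it on either strand, and 5 of the 27 windows of the P450s tested did. The CCAAT box was found once in Cyp4f15 and at 2 places in Cyp4f18, and 33.8% of all windows and 55.6% of those of the P450s tested held one. GCGTG on either strand, the core of the element bound by the aryl hydrocarbon receptor, was in none of the 5 windows, in 28.2% of all windows and in 33.3% of those of the P450s tested, Cyp1b1 among them. None of the 3 motifs was common to the 5 genes in these windows.

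Family 2 holds most drug-metabolizing P450s, and 15 of its 44 members on the array were tested. In these family counts Cyp2r1 was placed with the vitamin D genes, and pseudogenes were counted apart. Cyp2f2, which turns naphthalene and related compounds into reactive epoxides and is best known from club cells of the airway, had the largest difference of all P450s tested. Its signals were 7.02, 6.43 and 7.22 in Sox17f/f uteri and 12.998, 12.44 and 12.91 in Sox17ed/ed uteri. All 3 Sox17ed/ed arrays lay far above all 3 Sox17f/f arrays. The log2 fold change was 5.89 (SE 0.24, limma adjusted p = 4.13e-05), a 59.3-fold difference in linear signal, with a 95% interval from 5.31 to 6.47.

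Cyp2s1, expressed mainly in epithelia outside the liver and able to oxidize retinoids and eicosanoids, was the other family 2 gene that rose. It measured 9.01, 9.12 and 9.10 in Sox17f/f uteri and 9.98, 9.95 and 10.14 in Sox17ed/ed uteri. The genotypes were well apart, with a log2 fold change of 0.95 (SE 0.078, limma adjusted p = 0.00058). Both genes lie in the Cyp2 cluster of chromosome 7, Cyp2s1 first and Cyp2f2 next to last, which holds 13 protein-coding P450s from Cyp2s1 to Cyp2t4. The array carried 12 of them and 3 could be tested. The 9 P450s between Cyp2s1 and Cyp2f2 that had a probe did not pass the background filter, and Cyp2t4, the next gene after Cyp2f2, had a log2 fold change of 0.061 (95% interval -0.58 to 0.70). Beyond the cluster, Axl next to Cyp2s1 had a log2 fold change of 0.072.

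Of the 8 uterine epithelial markers, all above background on all 6 arrays, Krt19 (log2 fold change 2.10), Krt8 (0.69) and Cdh1 (0.59) rose, Cldn3 (-1.16) fell and 4 did not pass. The summed linear signal of the list ran from 46777 to 48493 in Sox17f/f and from 48546 to 59672 in Sox17ed/ed uteri, so that the ranges nearly met. Its part in the P450 differences was not tested.

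The other 13 family 2 genes tested did not pass. Their log2 fold changes ran from -0.53 in Cyp2d26 to 0.28 in Cyp2d12. Cyp2d26 was above background on all 3 Sox17f/f arrays but on only 1 Sox17ed/ed array. Cyp2j6, an arachidonate epoxygenase, was apart between the genotypes, with means of 7.55 and 7.83, but its log2 fold change of 0.28 (SE 0.085, limma adjusted p = 0.0698) was below the fold threshold. A second probe of Cyp2j6 gave 0.13 (SE 0.45). Cyp2d11 was the family 2 gene of highest signal among those not past the thresholds, at 9.79 ± 0.17 in Sox17f/f and 9.98 ± 0.12 in Sox17ed/ed (SD, n = 3), with a log2 fold change of 0.19.

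Family 4 enzymes hydroxylate the ends of fatty acids and eicosanoids, and 9 of 20 members on the array were tested. Here 3 rose and none fell, where 6.04% of all genes rose and 6.47% fell, with a median log2 fold change of 0.21. Cyp4f15, one of the mouse Cyp4f genes that act on leukotrienes and fatty acids, measured 1.87, 1.88 and 1.81 in Sox17f/f uteri and 4.96, 4.84 and 4.62 in Sox17ed/ed uteri. It was above background on all Sox17ed/ed arrays and on no Sox17f/f array. The gene thus passed the background filter only through the Sox17ed/ed arrays. The fitted log2 fold change was 2.95 (SE 0.099, limma adjusted p = 2.05e-05). The Sox17f/f values were signals below background, so this SE and p do not measure a spread of expression in that genotype. With a moderation that follows signal intensity, the SE was 0.38. The mean over the Sox17f/f arrays of each array's lowest signal above background served as a reference. The Sox17ed/ed mean of Cyp4f15 was 2.27-fold above it, a log2 difference of 1.18. That is no strict lower limit, since a signal over an array's lowest value was not always called above background. The size depended on the background correction, since with another one (normexp) the fitted log2 fold change was 0.62, below that difference and still past the thresholds.

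Cyp4f18, a leukotriene hydroxylase of myeloid cells, measured 10.22, 10.03 and 10.04 in Sox17f/f uteri and 10.39, 11.19 and 11.04 in Sox17ed/ed uteri. Its log2 fold change was 0.78 (SE 0.21, limma adjusted p = 0.05). The first Sox17ed/ed array lay little above the Sox17f/f arrays and the other 2 clearly above. The call was lost when any 1 array other than the first Sox17ed/ed array was left out, with log2 fold changes from 0.62 to 0.84, and without the first Sox17ed/ed array it was kept at 1.02. None of the 5 macrophage and leukocyte markers tested passed, though Csf1r, at 0.41 (limma adjusted p = 0.0162), missed only the fold threshold. The others ran from -0.11 in Adgre1 to 0.28 in Lyz2. The summed linear signal of these markers ran from 15022 to 15267 in Sox17f/f and from 17845 to 19160 in Sox17ed/ed uteri. Of 5 neutrophil genes chosen after the data were seen, Camp, Mpo and Elane were above background on all 6 arrays and overlapped between the genotypes. Ngp was above background on the third Sox17f/f array only and Cxcr2 on 2 Sox17f/f arrays. The part of these cells in the Cyp4f18 difference was not tested.

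Cyp4b1, which hydroxylates fatty acids and activates furans and aromatic amines in lung and bladder, measured 7.87, 7.80 and 7.95 in Sox17f/f uteri and 8.76, 8.70 and 8.67 in Sox17ed/ed uteri. The log2 fold change was 0.84 (SE 0.068, limma adjusted p = 0.00056), with replicates of each genotype close together. The other 6 family 4 genes did not pass. Neighbours of Cyp4f15 in the chromosome 17 cluster, Cyp4f16 (0.074, 95% interval -0.12 to 0.27), Cyp4f17 (0.042, -0.23 to 0.32) and Cyp4f13 (0.072, -0.12 to 0.26), had intervals inside the 1.4-fold limits. Next to Cyp4b1 on chromosome 4, the fatty acid hydroxylases Cyp4a10 and Cyp4a31 had log2 fold changes of 0.21 (95% interval -0.54 to 0.96) and -0.051 (-0.53 to 0.43). Each rests on 1 probe of low signal, and the other probes of both genes were not above background on any array. Cyp4v3, a fatty acid hydroxylase, was apart between the genotypes at 0.33 (SE 0.12, limma adjusted p = 0.101). P450s of a subfamily are alike in sequence, and cross-hybridization between them was not assessed because the probe sequences were not used here.

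**Figure D2:**
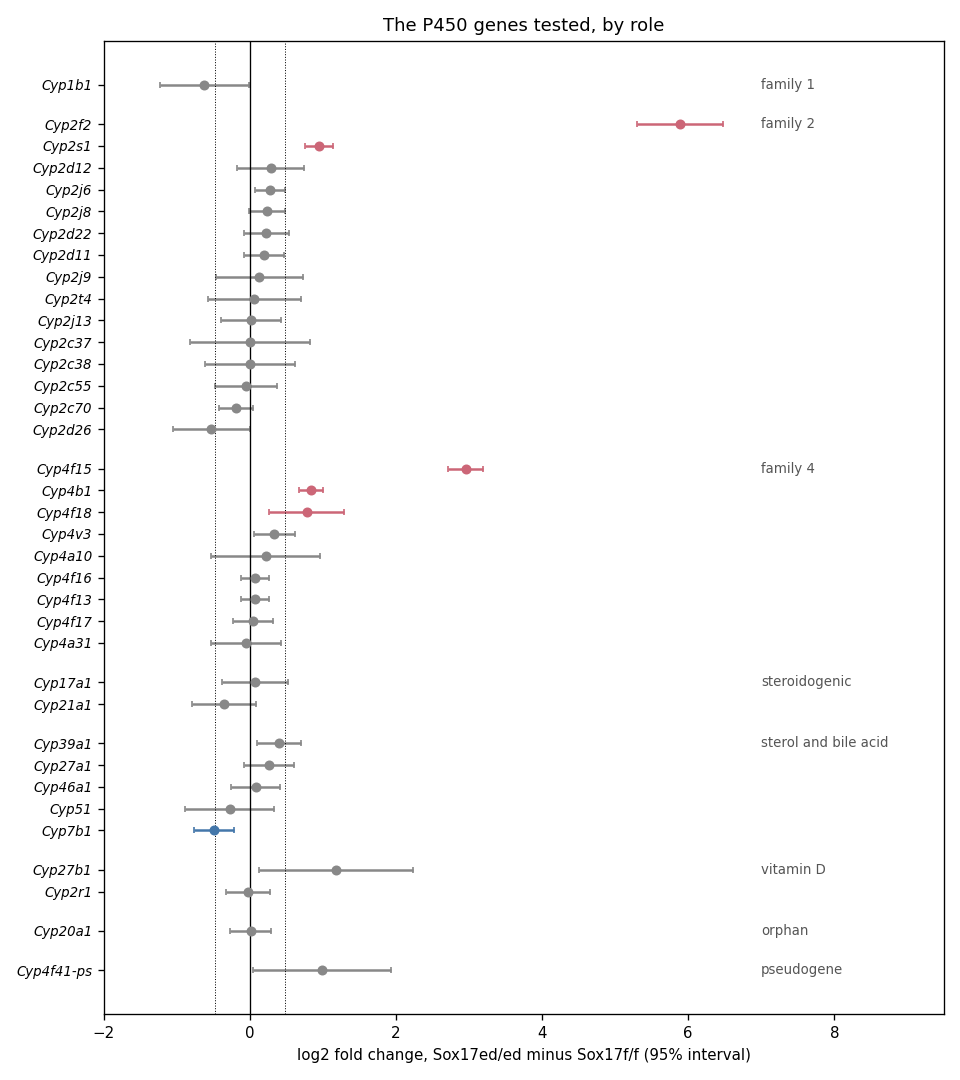
Log2 fold change (Sox17ed/ed minus Sox17f/f) with its 95% interval for the 36 P450 genes tested, ordered by role. Red marks genes past the thresholds and higher, blue lower, grey not past them, and the dotted lines mark a 1.4-fold change. Cyp2f2 lies highest at 5.89, Cyp4f15 at 2.95 is fitted against a Sox17f/f signal below background, and the others lie between -0.63 and 1.18.

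Among the sterol and bile acid P450s, 5 of 7 were tested and 1 passed. Cyp7b1, the hydroxylase that inactivates oxysterols and some steroids such as DHEA, measured 10.26, 10.07 and 10.18 in Sox17f/f uteri and 9.62, 9.88 and 9.52 in Sox17ed/ed uteri. The genotypes did not overlap, with a log2 fold change of -0.50 (SE 0.11, limma adjusted p = 0.0290). The difference lies close to the fold threshold. The call was lost without the first or the third Sox17f/f array or without the first or the third Sox17ed/ed array, at -0.42 to -0.49, and with normexp at -0.42. The liver markers Serpina1a (log2 fold change -3.26) and Ttr fell in Sox17ed/ed uteri. Ttr was at 8.99 to 10.05 in Sox17f/f and not above background on any Sox17ed/ed array, while Alb and Apoa1 were not above background on any array. The summed signal of the 6 liver markers was 4236 to 6539 in Sox17f/f and 417 to 1911 in Sox17ed/ed uteri, the highest of these on the second array, where Fgb alone measured 10.47 and on the other Sox17ed/ed arrays was not above background. Its part in the Cyp7b1 difference was not tested.

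Cyp39a1, which hydroxylates another oxysterol at the same position, measured 10.40 ± 0.23 in Sox17f/f and 10.80 ± 0.062 in Sox17ed/ed uteri (SD, n = 3). Its log2 fold change of 0.40 (SE 0.12, limma adjusted p = 0.0757) did not pass, although the genotypes were apart. Cyp27a1, the mitochondrial sterol hydroxylase that makes an oxysterol, had 0.26 (95% interval -0.086 to 0.61). Cyp46a1, the cholesterol hydroxylase best known from brain, had 0.081 (-0.25 to 0.42). Cyp51, the lanosterol demethylase of cholesterol synthesis, measured 6.82, 6.98 and 7.05 in Sox17f/f uteri and 6.39, 7.27 and 6.36 in Sox17ed/ed uteri. Its difference of -0.28 (SE 0.25, limma adjusted p = 0.490) did not pass. The second Sox17ed/ed array was the highest of all 6 and the other 2 were the lowest. Without the second Sox17ed/ed array Cyp51 was past the thresholds at -0.57, and without the first or the third its difference was -0.13 or -0.12. Cyp7a1 and Cyp8b1, the bile acid enzymes of liver, were not above background on any array.

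Of the steroid-making P450s, Cyp17a1 and Cyp21a1 were tested, and neither passed. Cyp17a1, which prepares androgen precursors, measured 10.11, 9.65 and 9.56 in Sox17f/f uteri and 10.01, 9.96 and 9.55 in Sox17ed/ed uteri. The genotypes overlapped fully, with a log2 fold change of 0.068 (95% interval -0.39 to 0.53). Cyp21a1, the steroid hydroxylase of the adrenal cortex, had -0.35 (-0.79 to 0.084), and its second probe was not above background on any array. Cyp19a1 (aromatase), Cyp11b1 and Cyp11b2 were not above background on any array.

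Cyp11a1, which cleaves the cholesterol side chain in the first step of steroid synthesis, was above background on the third Sox17ed/ed array only, at 9.42. The other 5 arrays lay between 1.83 and 2.22, below background. On that array the gonadal markers Fshr, Lhcgr and Amh were not above background, as on every other, and Star, which delivers cholesterol to Cyp11a1, measured 6.02 there and 5.27 to 6.23 on the others. Of the 9 ovary and corpus luteum markers, 4 to 6 were above background on an array. Their summed signal was 17909 to 19673 in Sox17f/f and 14385 to 18234 in Sox17ed/ed uteri. Foxl2 alone, at 13.71 to 14.18 over the arrays, made up most of that sum, so the sum says little of the other markers. Of the enzymes that convert pregnenolone to progesterone, Hsd3b1 was not above background on any array, Hsd3b2 was on the third Sox17ed/ed array only, at 4.14, and Hsd3b6 on the first Sox17ed/ed array only, at 5.46.

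The vitamin D P450s showed a wide spread. Cyp27b1, which makes the active hormone, measured 4.80, 4.07 and 3.53 in Sox17f/f uteri and 6.08, 4.78 and 5.08 in Sox17ed/ed uteri. The second Sox17ed/ed array lay just below the highest Sox17f/f array, and the log2 fold change of 1.18 (SE 0.44, limma adjusted p = 0.115) did not pass. With normexp it was 0.34. Cyp2r1, the hydroxylase of the preceding step, had -0.026 (95% interval -0.33 to 0.28), and its second probe gave -0.33 (SE 0.19). Cyp24a1, the enzyme that breaks active vitamin D down and is a standard target of its receptor, was not above background on any array.

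In family 1, whose genes are induced through the aryl hydrocarbon receptor, 1 of 3 members was tested. Cyp1b1, which hydroxylates estradiol, measured 8.80, 8.83 and 9.42 in Sox17f/f uteri and 8.03, 8.82 and 8.33 in Sox17ed/ed uteri. The ranges met at 8.82 and 8.80, and the log2 fold change of -0.63 (SE 0.25, limma adjusted p = 0.140) did not pass. Cyp1a1 and Cyp1a2 were not above background on any array, with Cyp1a1 between 1.69 and 2.05. The orphan enzyme Cyp20a1 had a log2 fold change of 0.0075 (95% interval -0.27 to 0.28), and the pseudogene Cyp4f41-ps 0.98 (SE 0.39, limma adjusted p = 0.134).

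Over the 30 P450s that did not pass, log2 fold changes ran from -0.63 to 1.18 and the smallest adjusted p was 0.0698. For 12 of them the 95% interval lay inside the 1.4-fold limits, among them Cyp2j6, Cyp2j8, Cyp2d11, Cyp2c70, Cyp46a1, Cyp20a1, Cyp4f13, Cyp4f16 and Cyp4f17. For the other 18 the interval reached past those limits, so that a change of that size is not excluded.

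The genes that serve the P450s were then examined by list. Beside the list counts that follow, 12.5% of all genes tested passed, 6.04% as higher and 6.47% as lower. Por, the reductase that feeds electrons to microsomal P450s, measured 11.56, 11.37 and 11.47 in Sox17f/f uteri and 11.79, 11.57 and 11.81 in Sox17ed/ed uteri. Its arrays did not overlap between genotypes, but the log2 fold change of 0.25 (SE 0.094, limma adjusted p = 0.115) did not pass. Of the 10 redox partners tested, Cyb5b, the cytochrome b5 of the outer mitochondrial membrane, rose (0.96, SE 0.1, limma adjusted p = 0.00155) and Cyb5r3, the cytochrome b5 reductase, fell (-0.59, SE 0.074, limma adjusted p = 0.00341). Of 9 heme synthesis genes, Alad, the enzyme of the second step, rose (0.67, limma adjusted p = 0.0113). Median log2 fold changes were 0.0025 for the redox partners and 0.038 for heme synthesis.

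Of 17 P450-inducing receptors and partners tested, Ahr, the aryl hydrocarbon receptor, was past the thresholds, at 11.26, 11.16 and 11.05 in Sox17f/f uteri and 10.33, 10.27 and 10.17 in Sox17ed/ed uteri. The log2 fold change was -0.90 (SE 0.082, limma adjusted p = 0.000906). None of the 7 tested genes of its target battery passed. When the probes of a gene were averaged, no receptor passed, Ahr included, so its call depended on the probe used. Without the second or the third Sox17f/f array 2 receptors passed. In the battery 1 gene passed without the third Sox17f/f array, and 1 when the probe of smallest p stood for a gene.

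All 4 epoxide hydrolases, which open the epoxides that P450s form, were tested. Ephx1, the microsomal enzyme that acts on foreign epoxides, rose from 11.93 ± 0.075 to 12.995 ± 0.078 (SD, n = 3), a log2 fold change of 1.07 (SE 0.075, limma adjusted p = 0.000316). Ephx3, which acts on fatty acid epoxides, fell from 7.10 ± 0.14 to 6.19 ± 0.035 (log2 fold change -0.91, limma adjusted p = 0.00112). The P450-type synthases of thromboxane and prostacyclin, Tbxas1 and Ptgis, did not pass.

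Of the steroidogenic partners, 15 of 23 were tested, with 2 past the thresholds in each direction. Akr1c18, which inactivates progesterone, fell from 7.32 ± 0.46 to 3.43 ± 0.29 (SD, n = 3) and was not above background on any Sox17ed/ed array. It passed the background filter only through the Sox17f/f arrays and is counted with that limit. Srd5a1, the steroid reductase that acts on progesterone and testosterone, fell (log2 fold change -1.45, SE 0.17, limma adjusted p = 0.00248). Hsd17b11 (0.59), which oxidizes androgen metabolites, and Hsd11b2 (0.49), which inactivates glucocorticoids, rose.

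In the vitamin D list, 5 of 6 genes were tested. The endocytic receptors Lrp2 (log2 fold change -1.68, SE 0.23, limma adjusted p = 0.00498) and Cubn (-1.22, SE 0.085, limma adjusted p = 0.000299), which take up vitamin D with its binding protein, fell. None of 7 oxysterol and bile acid genes tested passed, and 1 did without the third Sox17f/f array. Among the sterol synthesis genes, Pmvk, the phosphomevalonate kinase upstream of Cyp51, fell (-2.10, SE 0.11, limma adjusted p = 0.000114).

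**Figure D3:**
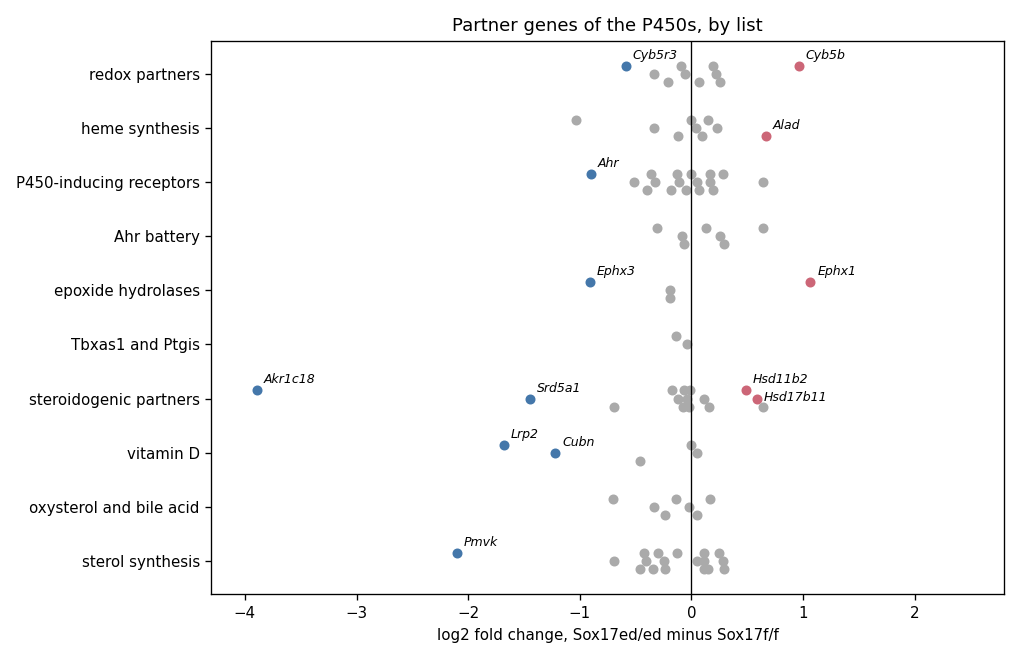
Log2 fold change (Sox17ed/ed minus Sox17f/f) of the partner genes tested and reported here, 1 point a gene and 1 row a list, with small vertical offsets for legibility. Red and named genes rose past the thresholds, blue and named genes fell, and grey genes did not pass. Akr1c18 lies lowest at -3.89, fitted against a signal below background, and Ephx1 highest of those shown at 1.07.

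The remaining 51 P450s on the array did not pass the filter, 37 with no array above background and 14 with 1 or 2. An array measured 1 to 8 of them, with 2, 3 and 8 on the Sox17f/f arrays and 3, 1 and 2 on the Sox17ed/ed arrays. Cyp2j5, a renal and hepatic arachidonate epoxygenase, was above background on 2 Sox17f/f arrays, at 4.93 and 8.00, and not on the first, at 1.82. The 3 Sox17ed/ed arrays lay at 1.83 to 1.85. Cyp2j5 was not tested in the main comparison and was not called in the alternative without a filter on low signal.

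**Figure D4:**
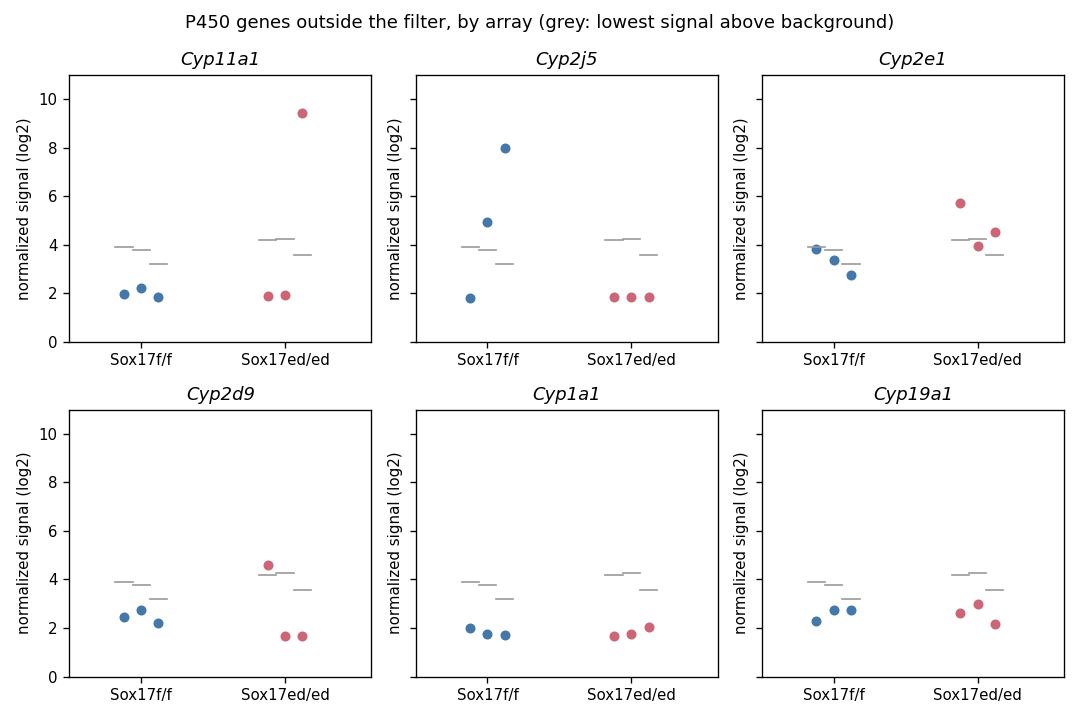
Normalized log2 signal by array of 6 P450 genes outside the filter, 3 Sox17f/f arrays in blue and 3 Sox17ed/ed arrays in red in replicate order, with a grey bar at each array's lowest signal well above background. Cyp11a1 exceeds it on 1 Sox17ed/ed array at 9.42 and Cyp2j5 on 2 Sox17f/f arrays, while Cyp1a1 and Cyp19a1 do not exceed it on any array.

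The lists of other tissues were read on the same arrays. No endometrial stroma, endothelium or leukocyte marker passed both thresholds. All 6 endothelial markers had negative log2 fold changes, however, from -0.43 in Cdh5 (limma adjusted p = 0.00394) to -0.082 in Emcn, and Cdh5, Tie1, Kdr and Pecam1 had an adjusted p below 0.05. Their summed linear signal was 8647 to 8791 in Sox17f/f and 6763 to 7119 in Sox17ed/ed uteri, and its part in the P450 differences was not tested. Single genes passed and fell among smooth muscle (Actg2), adipocyte (Adrb3) and exocrine pancreas (Cpa1) markers. The 7 smooth muscle markers ran from -0.64 in Actg2 to 0.060 in Smtn, with a median of -0.29. Cnn1 (-0.48, limma adjusted p = 0.0294) was just below the fold threshold. Their summed signal was 494418 to 546167 in Sox17f/f and 368403 to 443794 in Sox17ed/ed uteri. For stroma it was 475243 to 490478 against 414423 to 470309. The part of these shifts in the P450 differences was not tested. Of the oviduct and ciliated cell markers, Foxj1 rose while Ovgp1 and Dnah5 fell, and of the mesothelial markers Upk3b rose and Lrrn4 fell. Krt5 rose among the stratified squamous markers. Lrrn4 was not above background on any Sox17ed/ed array, nor Krt5 on any Sox17f/f array, so each passed the filter only through the other genotype. Foxj1 was above background on 1 Sox17f/f array and Dnah5 on 1 Sox17ed/ed array. The other markers tested in these lists, Trp63, Krt14 and Krt10 among them, did not pass.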

How the data were processed

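Intensities of the 6 Agilent G3 Mouse GE arrays were deposited by the authors as Feature Extraction output (version 11.0.1.1 per the file headers, 9.1 per the submitters' processing notes), with background-subtracted signals on a linear scale in 1 colour. The authors' methods give quantile normalization in Bioconductor. A deposited intensity table of the same arrays lay within 0.191% of the processed signals averaged per probe and was used as an alternative. Processed signals were log2-transformed and quantile-normalized here, flagged spots (169 to 302 an array) were left out, and spots were averaged per probe. RefSeq accessions named 26582 of 55681 probes (GRCm38.p6). Probes well above background on at least 3 arrays were kept and the brightest stood for a gene. Sox17ed/ed was compared with Sox17f/f by limma 3.58.1 in R 4.3.3 (lmFit, eBayes) on 3 against 3 arrays, with Benjamini-Hochberg adjustment over 14847 genes. The script was tested on simulated data. The number of arrays limits the precision.

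Named were all P450s past the thresholds, 12 listed P450s and Por whatever their result, the 3 of highest signal that did not pass, and the list genes that passed, except 1 that is not reported here. Members and lists were chosen with earlier results of these data known. Other genes were named after their values were seen. Marker lists covered uterine epithelium, stroma, smooth muscle, endothelium, leukocytes, adipocytes, ovary, oviduct, pancreas, liver, mesothelium and squamous epithelium. Alternatives were another scaling, background correction, filter, probe rule, moderation, threshold, a replicate block and leaving out each array. Python 3.11.15 and matplotlib 3.10.9 were used for tables and plots.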

Additional observations from a re-analysis of the deposited data

Results flagged for a closer look

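The following P450 probes were outside the filter and did not enter the main comparison. They were above background on a Sox17ed/ed array and on no Sox17f/f array. Cyp11a1 reached 9.42 on the third Sox17ed/ed array, against 2.22 on the highest Sox17f/f array. Cyp2e1, an ethanol-metabolizing P450, was above background on 2 Sox17ed/ed arrays and reached 5.71, against 3.83. A second probe of Cyp2j13 reached 5.49 on 1 array, against 2.76. Cyp2d9 reached 4.61 on 1 array, against 2.75, and Cyp2d10 reached 4.37 on 1 array, against 2.47. Other probes outside the filter showed the reverse, above background on Sox17f/f arrays and on no Sox17ed/ed array. Those of Cyp2a4, Cyp2d40 and Cyp2j5 did so on 2 Sox17f/f arrays. A second probe of Cyp2a4 and probes of Cyp2b9, Cyp2c66, Cyp2c67, Cyp4a12b, Cyp4a29 and Cyp4f14 did so on 1. No probe of either kind was tested in the main comparison. The alternative without a filter on low signal fitted the brightest probe of all 87 P450s, and none of the genes named in this paragraph was called there.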

How the results depend on the processing

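The rise of Cyp2f2, Cyp2s1 and Cyp4b1 was called under every alternative run but the fold threshold of 2, which Cyp2s1 and Cyp4b1 did not reach, with log2 fold changes of 5.26 to 6.06, 0.84 to 0.98 and 0.74 to 0.88, and that of Cyp4f15 under all but the filter to all 6 arrays, which did not test it. Over alternatives that left out 1 array, 4 to 6 P450s were higher and 0 to 2 lower, and 1660 to 2034 genes were past the thresholds. Without the third Sox17f/f array, Cyp2d12 and Cyp39a1 were gained as higher and Cyp21a1 as lower. Without the third Sox17ed/ed array Cyp2d26 was gained as lower. Cyp2d26 was above background on only 1 of the 3 Sox17ed/ed arrays, so this call rests on signals near or below background. The count of 1 lower P450 became 0 with normexp, with the replicate block and at a fold threshold of 2. At that fold threshold 2 P450s were higher, Cyp2f2 and Cyp4f15, and 817 genes passed. With an adjusted p below 0.05 and no fold threshold, 2808 genes passed and the P450 calls were the 6 of the report. Cyp17a1 ranged from -0.039 to 0.24 when 1 array was left out, with a sign change to -0.039 without the third Sox17f/f array and to -0.019 without the first Sox17ed/ed array. The cause of these shifts was not tested.

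Deviations of same-numbered arrays from their genotype means had correlations of 0.063, -0.114 and -9.52e-05. With so few arrays these values cannot decide whether the replicate numbers pair the samples, and the labels do not say so. With the replicate block 5 P450s were higher and 0 lower, since Cyp4f18 (0.78) and Cyp7b1 (-0.50) were lost and Cyp27b1 (1.18) was gained, while 1796 genes passed. Cyp4f18 was also lost without a filter on low signal. Normexp on the median signal, an alternative chosen after seeing the data, replaced the planned one on the mean signal, which was not run because the scanner output read here gives each spot's median signal, not its mean. It gained Cyp39a1. Signals below background limit what can be said of the 51 P450s outside the filter.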
